A study of Mus musculus with 16 samples.

Results

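Cathepsins and legumain are the proteases that digest proteins in the lysosome. The genes described here are 9 cathepsin genes, *Ctsb*, *Ctsc*, *Ctsd*, *Ctse*, *Ctsh*, *Ctsk*, *Ctsl*, *Ctss* and *Ctsz*, together with *Lgmn*, which encodes legumain. They were chosen by gene symbol, and all 10 were found among the 23356 genes of the deposited expression table. Expression was measured by RNA-seq in bone marrow-derived dendritic cells (BMDCs), grown from C57BL/6 bone marrow for 6 days with the cytokines GM-CSF and IL-4. The marrow came from wild-type mice and from mice lacking *Tmem173* (*Tmem173*-/-), *Irf1* (*Irf1*-/-) or both *Irf3* and *Irf7* (*Irf3/7*-/-), sex-matched and 6 to 12 weeks old according to the methods. *Tmem173* encodes STING, the receptor for the bacterial second messenger c-di-GMP, and the IRF genes encode transcription factors that act downstream of it. Cells of each genotype received c-di-GMP for 18 h or no treatment. The dose was 25 µg/ml according to the labels, while the paper's legends give a higher one. The deletions are germline, so that every cell in the culture and in the mouse lacked the gene, and the study took the floating and loosely attached cells of each culture as BMDCs. The labels list 16 samples, 2 for each of the 8 conditions, and do not say whether they came from separate cultures.

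The authors combined the samples of each condition and deposited, for each gene and condition, 1 FPKM (a count of fragments divided by transcript length and by the mapped total) with the lower and upper bound of a confidence interval. All values below are these authors' values, given with the interval in parentheses. There was thus no spread between replicates to test against, and no p-value was computed. Read depth cannot be read from FPKM, and the intervals are not a measure of it. For 4710 genes that reached 10 FPKM in all conditions, the bounds lay a median of 25.2% to 25.7% of the FPKM away from it. Since FPKM is scaled to transcript length, levels can be compared between genes. Differences are log2 ratios after adding 0.1 FPKM to both values, with the range that the bounds of both intervals allow. Calls of higher or lower needed a ratio above 2-fold, intervals of the authors that did not overlap, a level of 1 FPKM or more in either condition and the Cuffdiff status OK in both. In bulk RNA, more cells of one kind and more RNA per cell cannot be told apart.

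Cathepsins are made as inactive precursors, carried to endosomes and lysosomes by sorting receptors, and activated there as the compartment becomes acidic. Cathepsins B, C, H, K, L, S and Z are cysteine proteases of the papain family, cathepsins D and E are aspartic proteases, and legumain is a cysteine protease of another family that cuts after asparagine. In dendritic cells these enzymes degrade antigen to peptides, cut the invariant chain (Cd74) that blocks the groove of MHC class II, and process the endosomal Toll-like receptors. Cystatins and stefins inhibit the cysteine cathepsins, and the factors TFEB, TFE3 and MITF drive many lysosomal genes through the E-box CACGTG.

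The labels were checked first. In *Tmem173*-/- BMDCs the *Tmem173* gene had 8.97 FPKM untreated and 7.49 FPKM treated, where the other genotypes had 77.0 to 118 FPKM. *Irf1* was at 25.9 and 116 FPKM in *Irf1*-/- BMDCs, below the 149 and 245 FPKM of wild-type BMDCs. In *Tmem173*-/- BMDCs *Irf1* was at 24.1 and 23.3 FPKM, the treated value below that of treated *Irf1*-/- BMDCs. For *Irf7*, *Irf3/7*-/- BMDCs had 1.07 and 4.97 FPKM and wild-type BMDCs 15.2 and 687 FPKM. *Irf3* was at 7.74 FPKM in untreated *Irf3/7*-/- BMDCs but at 20.2 FPKM in treated ones, not below the 15.8 FPKM of treated wild-type BMDCs. Which exons were deleted is not given in the sources used here, so that a transcript without the deleted exons still counts toward these values. Of 7 dendritic cell markers, *Itgax* was between 135 and 369 FPKM and *Zbtb46* between 11.6 and 23.0 FPKM, whereas *Flt3* stayed at or under 2.75 FPKM and *Cd209a* at or under 3.10 FPKM. *Tmem173*-/- BMDCs stood apart in markers of other cells. In them 7 neutrophil markers summed to 20003 FPKM untreated and 14533 FPKM treated, against 1407 to 4015 FPKM in the other 6 conditions. Most of the untreated sum was *S100a8* and *S100a9*, at 10351 and 8336 FPKM. *S100a8* lay above its own upper bound of 10137 FPKM there. It also did so in the other conditions, for example at 2531 against 2169 FPKM in untreated wild-type BMDCs. The neutrophil sums of all 8 conditions are therefore uncertain. The 10 macrophage markers summed to 598 and 549 FPKM in *Tmem173*-/- BMDCs, against 104 to 354 FPKM. These markers did not move together. Untreated, *Csf1r* was at 194 FPKM against 54.3 FPKM in wild-type BMDCs and *Cd14* at 181 against 18.5 FPKM. *Mertk* alone was lower, at 2.83 against 4.89 FPKM. Treated, *Mertk*, *Cd14*, *Fcgr1* and *Apoe* were all below treated wild-type BMDCs.

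Transcripts of the 10 genes were abundant. Their FPKM summed to 3054 in untreated wild-type BMDCs, which is 0.517% of the summed FPKM of the whole table, and to 5786, or 0.830%, after c-di-GMP. In *Irf1*-/- BMDCs the sum was 3280.0 FPKM untreated and 5128 FPKM treated, and in *Irf3/7*-/- BMDCs 3140 and 5206 FPKM. The order was the opposite in *Tmem173*-/- BMDCs, in which the sum was 4852 FPKM untreated and 4012 FPKM treated. *Ctsz*, *Ctss* and *Ctsd* made up most of the sum in each condition, and the rise of the wild-type sum did not rest on *Ctsz* alone, since without it the sum was 2162 FPKM untreated and 3766 FPKM treated.

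**Figure D1:**
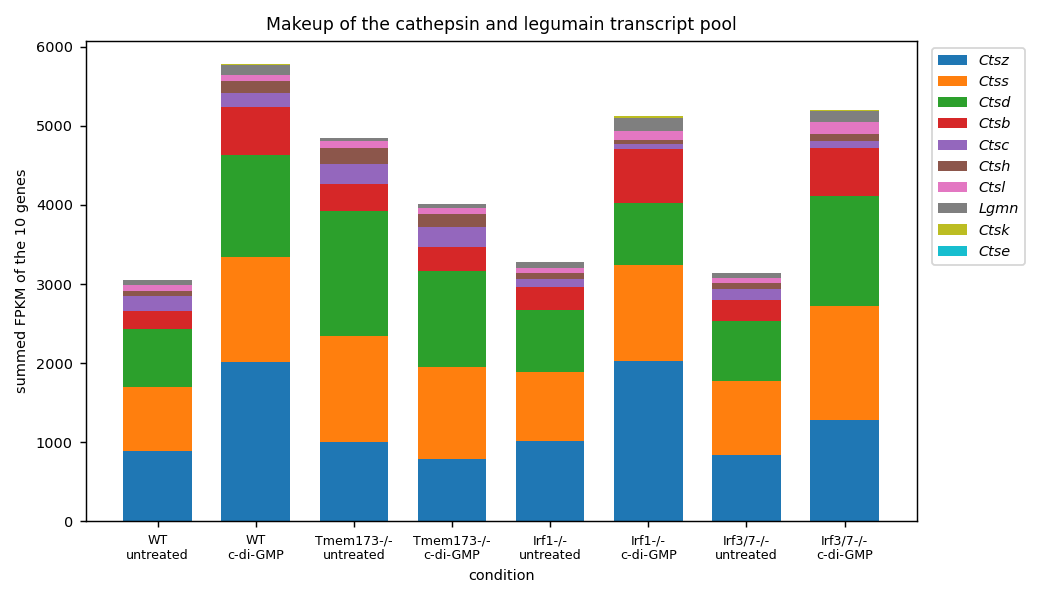
Stacked bars of the FPKM of the 10 genes in each of the 8 conditions (y axis, summed FPKM, linear from 0). The wild-type bar grows from 3054 to 5786 with c-di-GMP, while the *Tmem173*-/- bar goes from 4852 to 4012. The bars carry no error, since the authors' intervals are given per gene.

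Per length, the genes fell into tiers whose order was kept across conditions, although the intervals at some borders overlapped. *Ctsz*, *Ctss* and *Ctsd* held the top 3 places in all 8 conditions, and neighbours among these 3 had overlapping intervals in each. *Ctsz* was first in untreated and treated wild-type and *Irf1*-/- BMDCs, *Ctsd* was first in both *Tmem173*-/- conditions, and *Ctss* in both *Irf3/7*-/- conditions. In treated wild-type BMDCs *Ctsz* ranked 26, *Ctss* 46 and *Ctsd* 48 among all 23356 genes. *Ctsb* came next. *Ctsc*, *Ctsh*, *Ctsl* and *Lgmn* formed the middle tier, in an order that differed between conditions. *Ctsk* was always next to last and *Ctse* always last, each apart from its neighbour in the order in all 8 conditions. Across the 8 conditions the highest level exceeded the lowest by 11.1-fold for *Ctsk*, 4.13-fold for *Lgmn*, 3.78-fold for *Ctsc* and 3.71-fold for *Ctsh*, and by only 1.80-fold for *Ctss*.

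**Figure D2:**
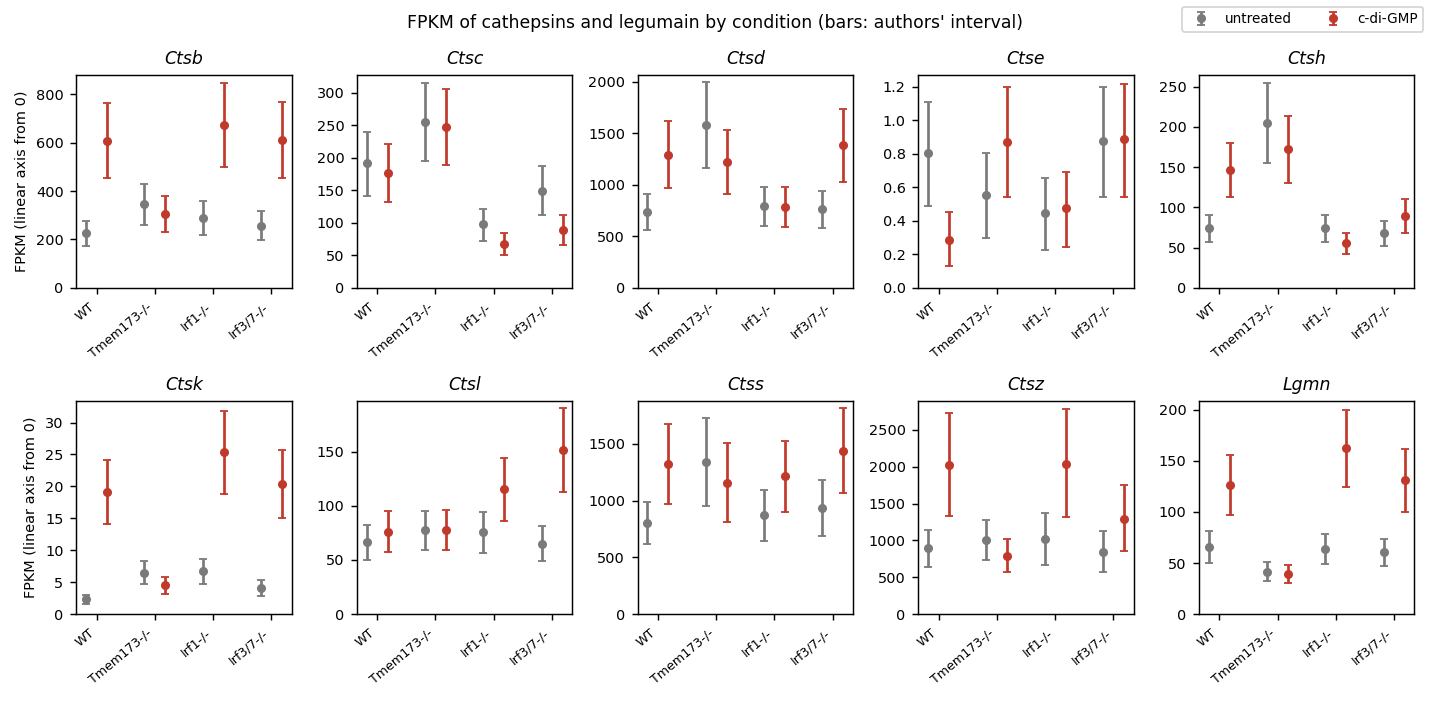
FPKM of each of the 10 genes (y axis, linear from 0, with its own scale in each panel) in untreated (gray) and c-di-GMP-treated (red) BMDCs of the 4 genotypes. Points are the authors' FPKM and bars the authors' confidence interval. In *Ctsk*, the wild-type, *Irf1*-/- and *Irf3/7*-/- points rise from 2.29 to 19.2, from 6.71 to 25.3 and from 4.05 to 20.4 FPKM, and those of *Tmem173*-/- go from 6.49 to 4.51 FPKM.

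The first question was how BMDCs of each genotype responded to c-di-GMP. In wild-type BMDCs, *Ctsb*, *Ctsk* and *Ctsz* rose and no tested member fell. These are 3 of the 9 members that could be tested, while 10.5% of the 11201 genes tested were called higher and 9.96% lower. The intervals of 6 members did not overlap, at any fold, against 27.6% of all tested genes, and the median log2 difference of the 9 was 0.94 against 0.00 over all genes. *Ctse* was not tested in any comparison, because it stayed under 1 FPKM throughout. In *Irf1*-/- BMDCs *Ctsb*, *Ctsk* and *Lgmn* were called higher, 3 of 9 with a median of 0.61, where 9.67% of all tested genes were called higher and 7.81% lower. In *Irf3/7*-/- BMDCs *Ctsb*, *Ctsk*, *Ctsl* and *Lgmn* were called higher, 4 of 9 with a median of 0.87, where the shares over all genes were 10.2% and 7.68%. In *Tmem173*-/- BMDCs no member was called and the median was -0.21, and only 0.0552% of all tested genes, 6 of 10867, passed the same rule there. Whether a response differed between genotypes was not tested, since each rests on 1 value per condition.

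Treated knockouts were then compared with treated wild-type BMDCs. These comparisons share the treated wild-type value, as the untreated ones share the untreated wild-type value. In treated *Tmem173*-/- BMDCs, *Ctsb*, *Ctsk*, *Ctsz* and *Lgmn* were called lower, 4 of 9, where 13.5% of all tested genes were called lower and 12.9% higher. *Ctsc* and *Ctsh* were called lower in treated *Irf1*-/- BMDCs, 2 of 9, where 4.91% of genes were called lower and 2.65% higher. No member was called in treated *Irf3/7*-/- BMDCs, where 7.3% of genes were called in either direction, although the intervals of 3 members (*Ctsc*, *Ctsh* and *Ctsl*) did not overlap, against 10.6% of all tested genes. Without treatment, *Ctsd*, *Ctsh* and *Ctsk* were called higher in *Tmem173*-/- BMDCs, 3 of 9 against 5.04% of genes higher and 5.95% lower, *Ctsk* was called higher in *Irf1*-/- BMDCs, 1 of 9 against 1.26% higher and 3.52% lower, and none was called in *Irf3/7*-/- BMDCs, where 2.04% of genes were called.

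**Figure D3:**
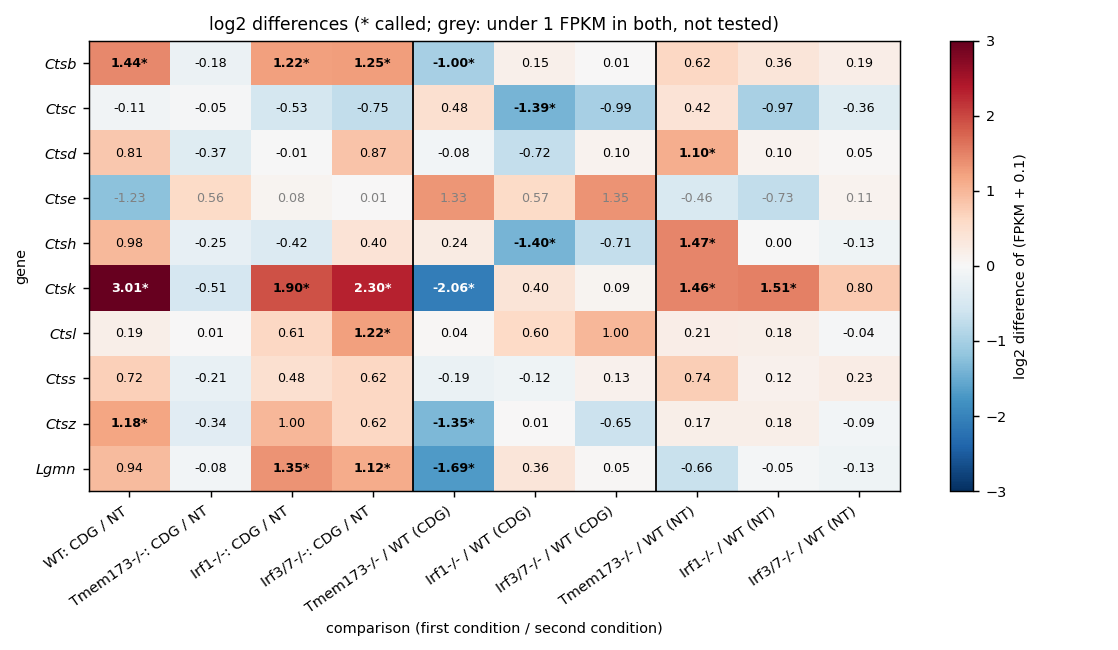
Grid of log2 differences of the 10 genes (rows) in the 10 comparisons (columns), with red for higher and blue for lower in the condition named first, an asterisk for a call, CDG for c-di-GMP and NT for untreated. The treated against untreated column of *Tmem173*-/- holds no call, and the treated *Tmem173*-/- against wild-type column holds 4, *Ctsb*, *Ctsk*, *Ctsz* and *Lgmn*.

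*Ctsk* encodes cathepsin K, a collagen-degrading endopeptidase best known from osteoclasts, and gave the largest difference of the 10 genes within wild-type BMDCs. It was at 2.29 FPKM (1.5 to 3.06) in untreated and 19.2 FPKM (14.1 to 24.2) in treated wild-type BMDCs. The corresponding values were 6.71 (4.78 to 8.64) and 25.3 FPKM (18.8 to 31.9) in *Irf1*-/- and 4.05 (2.82 to 5.29) and 20.4 FPKM (15.1 to 25.7) in *Irf3/7*-/- BMDCs. In *Tmem173*-/- BMDCs *Ctsk* was at 6.49 FPKM (4.70 to 8.26) untreated and 4.51 FPKM (3.19 to 5.82) treated. The 3 treated conditions with STING thus lay above all 5 others, with no overlap of intervals. The log2 difference with treatment was 3.01 (2.17 to 3.92) in wild-type, 1.90 (1.11 to 2.71) in *Irf1*-/-, 2.30 (1.49 to 3.14) in *Irf3/7*-/- and -0.51 (-1.34 to 0.30) in *Tmem173*-/- BMDCs. Untreated levels were not alike: *Ctsk* was 2.84-fold higher in *Tmem173*-/- and 2.93-fold higher in *Irf1*-/- than in wild-type BMDCs, both called, so that the wild-type fold starts from the lowest level. Of the other osteoclast genes, *Acp5*, which encodes tartrate-resistant acid phosphatase, was at 10.4 FPKM untreated and 61.1 FPKM treated in wild-type BMDCs, whereas *Mmp9* was at 17.9 and 6.78 FPKM and the calcitonin receptor gene *Calcr* was listed at 0 in all 8 conditions. The 6 osteoclast markers summed to 253 FPKM untreated and 265 FPKM treated in wild-type BMDCs.

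*Ctsb* encodes cathepsin B, which cuts within proteins and also removes dipeptides from their ends. It was at 224 FPKM (171 to 278) untreated and 609 FPKM (452 to 765) treated in wild-type BMDCs. The levels were 289 (219.9 to 358) and 674 FPKM (501 to 848) in *Irf1*-/- BMDCs, and in *Irf3/7*-/- BMDCs 257 (196 to 318) and 612 FPKM (455 to 769). *Tmem173*-/- BMDCs had 345 FPKM (259.5 to 431) untreated and 304 FPKM (229.8 to 378) treated. All 3 treated conditions with STING lay above the remaining 5, without overlap. *Ctsb* rose 2.71-fold in wild-type, 2.33-fold in *Irf1*-/- and 2.38-fold in *Irf3/7*-/- BMDCs. Its level in treated *Tmem173*-/- BMDCs was 2.003-fold below treated wild-type, just past the threshold, with a range of -1.73 to -0.26 for the log2 difference. In the table *Ctsb* shares its locus with *Fdft1*, a gene of the opposite strand whose annotated end overlaps it, and *Fdft1* was between 8.37 and 17.2 FPKM in the 8 conditions.

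*Ctsz* encodes cathepsin Z, also called cathepsin X, a carboxypeptidase that removes single residues. It was the most abundant member in wild-type BMDCs, at 892 FPKM (646 to 1137) untreated and 2021 FPKM (1333 to 2729) treated, a log2 difference of 1.18 (0.23 to 2.08). *Irf1*-/- BMDCs had 1014 (663 to 1365) and 2031 FPKM (1318 to 2783), and these intervals overlapped, so that a ratio of 2.003, with a range of -0.05 to 2.07 on the log2 scale, was not called. *Irf3/7*-/- BMDCs had 838 (566 to 1128) and 1286 FPKM (862 to 1749). *Tmem173*-/- BMDCs had 1001 (728 to 1276) and 792 FPKM (565 to 1022), and the treated level was 2.55-fold below that of treated wild-type BMDCs. *Ctsz* thus differed between the treated conditions more than between the untreated ones, which all overlapped. Its share of the summed FPKM of the 10 genes went from 29.2% to 34.9% with treatment in wild-type and from 30.9% to 39.6% in *Irf1*-/- BMDCs, and from 26.7% to 24.7% in *Irf3/7*-/- and from 20.6% to 19.7% in *Tmem173*-/- BMDCs. *Ctsz* had the widest intervals of the expressed members, with a distance to the bounds of up to 36.1% of the FPKM, and shares its locus in the table with *Nelfcd* of the opposite strand, which was between 5.16 and 9.98 FPKM.

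*Lgmn*, encoding legumain, which also activates several cathepsins by cutting their precursors, was at 65.9 FPKM (50.4 to 81.4) untreated and 127 FPKM (97.5 to 156) treated in wild-type BMDCs. The intervals did not overlap, but a ratio of 1.92 did not reach the threshold. *Lgmn* rose in *Irf1*-/- BMDCs from 63.6 (49.0 to 78.2) to 162 FPKM (125 to 200.4), and in *Irf3/7*-/- BMDCs from 60.3 (46.7 to 74.0) to 131 FPKM (100.4 to 162). In *Tmem173*-/- BMDCs it was at 41.6 FPKM (32.0 to 51.0) untreated and 39.3 FPKM (30.3 to 48.2) treated. These were its lowest levels, and the treated one was 3.23-fold below treated wild-type at a log2 difference of -1.69 (-2.36 to -1.01). Without treatment the intervals of *Tmem173*-/- and wild-type BMDCs overlapped narrowly, and the difference of -0.66 (-1.34 to 0.02) was not called.

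*Ctss* and *Ctsl* encode cathepsins S and L, the endopeptidases known for the last steps of invariant chain cleavage in dendritic cells and in thymic epithelium, respectively. *Ctss* was at 801 FPKM (614 to 989) untreated and 1322 FPKM (971 to 1672) treated in wild-type BMDCs, and the intervals overlapped. It was at 1342 (953 to 1732) and 1158 FPKM (811 to 1507) in *Tmem173*-/-, 869 (646 to 1093) and 1213 FPKM (897 to 1530.2) in *Irf1*-/-, and 939 (692 to 1185) and 1442 FPKM (1064 to 1819.7) in *Irf3/7*-/- BMDCs. No comparison of the 10 gave a call for *Ctss*. The log2 difference with treatment was 0.72 (-0.03 to 1.45) in wild-type BMDCs, a range that includes no difference as well as more than 2-fold. *Ctsl* was at 66.7 (49.8 to 82.7) and 76.0 FPKM (57.1 to 94.7) in wild-type and 77.2 (59.0 to 95.4) and 77.9 FPKM (59.3 to 96.3) in *Tmem173*-/- BMDCs. Its *Irf1*-/- levels were 75.4 (56.3 to 94.2) and 115 FPKM (85.9 to 144). In *Irf3/7*-/- BMDCs *Ctsl* rose from 65.0 (48.7 to 81.0) to 152 FPKM (113 to 189.8), a log2 difference of 1.22 (0.48 to 1.96) against 0.19 (-0.53 to 0.93) in wild-type BMDCs. The treated *Irf3/7*-/- level was 1.99-fold that of treated wild-type BMDCs, with intervals apart, and stayed just under the threshold.

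*Ctsc* and *Ctsh* encode exopeptidases that trim the ends of proteins. Cathepsin C removes dipeptides and activates the serine proteases of neutrophils, mast cells and cytotoxic lymphocytes, and cathepsin H is mainly an aminopeptidase. *Ctsc* was at 191 FPKM (141 to 239.9) untreated and 176 FPKM (132 to 220.4) treated in wild-type BMDCs, and at 255 (195 to 314) and 247 FPKM (188 to 305) in *Tmem173*-/- BMDCs. Lower values were found in *Irf1*-/- BMDCs, at 97.3 (72.6 to 122) and 67.5 FPKM (50.4 to 84.5), and in *Irf3/7*-/- BMDCs, at 149 (111 to 186) and 88.8 FPKM (66.1 to 111). It was lowest in treated *Irf1*-/- BMDCs, 2.61-fold below treated wild-type, a log2 difference of -1.39 (-2.13 to -0.65). Already without treatment, the *Irf1*-/- level was 1.96-fold below wild-type with intervals apart, and the treated *Irf3/7*-/- level was 1.99-fold below treated wild-type with intervals apart, and neither reached the threshold. *Ctsc* thus differed by genotype with little difference by treatment in wild-type BMDCs, at a log2 difference of -0.11 (-0.86 to 0.64), whereas in *Irf3/7*-/- BMDCs its intervals were apart with treatment at a difference of -0.75, not called. It made up 6.25% of the summed FPKM of the 10 genes in untreated wild-type BMDCs and 1.32% in treated *Irf1*-/- BMDCs.

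*Ctsh* was at 74.0 FPKM (57.0 to 90.8) untreated and 146 FPKM (112 to 180.3) treated in wild-type BMDCs, a ratio of 1.98 with intervals apart that did not reach the threshold. It was at 73.9 (56.9 to 90.8) and 55.3 FPKM (42.6 to 67.9) in *Irf1*-/- BMDCs and at 67.6 (51.9 to 83.3) and 89.4 FPKM (68.6 to 110.4) in *Irf3/7*-/- BMDCs. *Tmem173*-/- BMDCs had the highest levels, 205 FPKM (155 to 254) untreated and 172 FPKM (131 to 214) treated. The 3 genotypes with STING did not differ without treatment by more than their intervals. With treatment *Ctsh* was 2.65-fold lower in *Irf1*-/- than in wild-type BMDCs, a log2 difference of -1.40 (-2.08 to -0.73), and 1.64-fold lower in *Irf3/7*-/- BMDCs with intervals apart. Among treated cells, the 10 macrophage markers summed to 354 FPKM in wild-type, 267 in *Irf3/7*-/- and 111 in *Irf1*-/- BMDCs, the same order as *Ctsh*. The place of wild-type above *Irf3/7*-/- BMDCs rested on 1 marker, *Cd14*, at 181 and 84.2 FPKM, against 12.9 FPKM in *Irf1*-/- BMDCs. Leaving *Cd14* out, the wild-type sum was not the higher of these. Untreated *Irf1*-/- BMDCs had a marker sum of 104 FPKM against 220 FPKM in wild-type, at *Ctsh* levels of 73.9 and 74.0 FPKM. The part of the macrophage markers in the *Ctsh* difference was not tested. Treated *Tmem173*-/- BMDCs had log2 differences from treated wild-type of 0.48 for *Ctsc* and 0.24 for *Ctsh*, neither called.

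*Ctsd* encodes cathepsin D, the main aspartic protease of lysosomes. It was at 736 FPKM (558 to 914) untreated and 1290.1 FPKM (964 to 1615) treated in wild-type BMDCs, and at 759 (575 to 943) and 1383 FPKM (1030.1 to 1738) in *Irf3/7*-/- BMDCs. These intervals were apart in both genotypes, with ratios of 1.75 and 1.82 that were not called. In *Irf1*-/- BMDCs *Ctsd* was at 790.2 (598 to 982) and 783 FPKM (591 to 974), a log2 difference of -0.01 (-0.73 to 0.70). *Tmem173*-/- BMDCs had the highest level of the 8 conditions without treatment, 1577 FPKM (1159 to 1996), and 1217 FPKM (910.2 to 1525) with it. The untreated level was 2.14-fold that of wild-type BMDCs, a log2 difference of 1.10 (0.34 to 1.84). *Ctsd* and *Ctsh* shared this pattern, with a Pearson r of log2 FPKM of 0.85 over the 8 conditions.

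The 3 members called higher in untreated *Tmem173*-/- BMDCs, *Ctsd*, *Ctsh* and *Ctsk*, were higher in cells whose neutrophil markers summed to 20003 FPKM against 4015 FPKM in untreated wild-type BMDCs, and whose macrophage markers summed to 598 against 220 FPKM. Among the macrophage markers *Mertk* went the other way, at 2.83 against 4.89 FPKM. The part of these cells in the higher levels was not tested. The lysosomal membrane genes *Cd68*, *Cd63* and *Cln3* were also called higher there, at log2 differences of 1.42, 1.10 and 1.08. These were 3 of 12 tested in that list, where 5.04% of all tested genes were called higher. Of 33 other lysosomal hydrolases and activators 1 was called higher, and of 17 V-ATPase genes 0. With treatment of wild-type BMDCs the neutrophil sum went from 4015 to 1905 FPKM and the macrophage sum from 220 to 354 FPKM, and in *Irf1*-/- BMDCs from 2460 to 1407 and from 104 to 111 FPKM. These neutrophil sums hold *S100a8*, whose FPKM lay above its own upper bound in all 8 conditions. The part of such a shift in the treatment differences of *Ctsb*, *Ctsk*, *Ctsz* and *Lgmn* was not tested.

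*Ctse*, which encodes the aspartic protease cathepsin E, stayed between 0.287 FPKM (0.131 to 0.45), in treated wild-type BMDCs, and 0.886 FPKM (0.544 to 1.22), in treated *Irf3/7*-/- BMDCs. Its intervals reached 37.4% to 55.5% of the FPKM, and no fold is read from them.

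The variation of the members over the 8 conditions was compared pair by pair on log2(FPKM + 0.1), as a description. The points share their genotypes and treatments, and each is 1 pooled value. *Ctsb* and *Ctsk* were the most alike, with r = 0.98, and *Ctsz* followed both, with 0.90 and 0.89. *Lgmn* was closest to *Ctsz*, with 0.87. *Ctsd* was closest to *Ctsh* and to *Ctss*, with 0.85 and 0.83, and had 0.33 with *Ctsk*. *Ctsc* was closest to *Ctsh*, with 0.78, and had -0.76 with *Lgmn*. Among 7382 genes with at least 10 FPKM in a condition, the genes nearest to *Ctsk* were *Gsto1* (0.99), *Ctsb* itself (0.98) and *Rhoc* (0.97). Nearest to *Ctsb* were *Trappc6b*, *Sec11c* and *Ypel5* (0.98 to 0.99), to *Ctsz* *Tcta*, *Shkbp1* and *Adprh* (all 0.99), and to *Lgmn* *Vim*, *Ier3* and *S1pr3* (all 0.99). *Ctsd* was nearest to *Fcer1g*, *Cd63* and *Neat1* (0.97 to 0.99), *Ctsh* to *Arl11*, *1810033B17Rik* and *AB124611* (all 0.98), and *Ctsc* to *Aif1*, *Epn1* and *E2f1* (0.94 to 0.98). *Ctss* was nearest to *Dym*, the V-ATPase subunit gene *Atp6v1e1* and *Tm2d1* (0.97 to 0.98), and *Ctsl* to *Dirc2*, *Eml2* and *Emp1* (0.95 to 0.96).

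The genes lie on 8 chromosomes, at the following GRCm38 positions in GENCODE. *Ctsk* (chr3:95499256-95509362) and *Ctss* (chr3:95526786-95556403) lie on the plus strand of the same chromosome with 17423 bases between them, although *Ctsk* gave an 8.38-fold rise in wild-type BMDCs and *Ctss* was never called. *Ctsc* (chr7:88278085-88310888, plus) and *Ctsd* (chr7:142375911-142388038, minus) are on chromosome 7 but far apart. The others are *Ctse* (chr1:131638306-131675505, plus), *Ctsz* (chr2:174427493-174439039, minus), *Ctsh* (chr9:90054152-90076089, plus), *Lgmn* (chr12:102394084-102439813, minus), *Ctsl* (chr13:64359337-64370890, minus) and *Ctsb* (chr14:63122462-63145923, plus).

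Promoter sequences were available from RefSeq, build GRCm38.p6, for 7 of the 10 genes: *Ctsc*, *Ctsd*, *Ctsk*, *Ctsl*, *Ctss*, *Ctsz* and *Lgmn*, the last with 2 promoters. The 250 bases before each transcription start were searched on both strands for the E-box CACGTG, an IRF-binding core GAAANNGAAA, the STAT site TTCNNNGAA and the AP-1 site TGANTCA. Among 32851 such promoters, 6.02% held the E-box, 2.98% the IRF core, 7.02% the STAT site and 6.75% the AP-1 site. The 4 printed here are the neighbours *Ctsk* and *Ctss*, which differed in response, *Ctsc*, which was lower in *Irf1*-/- BMDCs, and *Ctsd*, which held the E-box at 2 places. Capitals mark a match, and the last base is the one before the start.
Ctsk: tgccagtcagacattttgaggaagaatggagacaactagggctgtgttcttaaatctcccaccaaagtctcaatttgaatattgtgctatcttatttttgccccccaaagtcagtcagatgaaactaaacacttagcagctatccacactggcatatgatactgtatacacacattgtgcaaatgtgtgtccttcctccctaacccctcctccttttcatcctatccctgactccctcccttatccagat
Ctss: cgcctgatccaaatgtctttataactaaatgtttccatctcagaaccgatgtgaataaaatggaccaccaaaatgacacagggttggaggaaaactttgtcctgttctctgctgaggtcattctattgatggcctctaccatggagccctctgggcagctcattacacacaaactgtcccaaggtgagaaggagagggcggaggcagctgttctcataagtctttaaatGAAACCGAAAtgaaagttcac
Ctsc: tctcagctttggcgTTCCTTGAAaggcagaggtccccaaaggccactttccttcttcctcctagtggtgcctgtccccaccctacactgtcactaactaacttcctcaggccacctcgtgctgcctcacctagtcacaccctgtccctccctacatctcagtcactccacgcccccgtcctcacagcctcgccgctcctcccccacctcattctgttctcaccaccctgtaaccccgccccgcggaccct
Ctsd: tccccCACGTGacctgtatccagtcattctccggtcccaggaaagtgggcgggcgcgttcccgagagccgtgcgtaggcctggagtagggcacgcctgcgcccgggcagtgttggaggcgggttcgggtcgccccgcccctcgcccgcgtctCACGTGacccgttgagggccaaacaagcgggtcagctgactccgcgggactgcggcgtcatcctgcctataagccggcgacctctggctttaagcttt

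They lie at chr3:95498960-95499209 and chr3:95526536-95526785 on the plus strand for *Ctsk* and *Ctss*, at chr7:88277835-88278084 on the plus strand for *Ctsc*, and at chr7:142387828-142388077 on the minus strand for *Ctsd*. The IRF core of *Ctss* covers bases -21 to -12 from the start, and the STAT site of *Ctsc* bases -236 to -228. The E-boxes of *Ctsd* lie at -245 to -240 and -98 to -93. Of the promoters not printed, that of *Ctsl* held the E-box at -236 to -231 and the second promoter of *Lgmn* at -49 to -44. The searched letters were not found in the windows of *Ctsk* and *Ctsz* or in the first window of *Lgmn*. A match is a run of letters and not a measured binding site.

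Around the 10 genes, 114 further genes of 8 lists were read in the same way. The lists held other cathepsins, protease inhibitors, sorting of hydrolases, the MiT/TFE factors and the proton pump (V-ATPase). They also held other lysosomal hydrolases, lysosomal membrane proteins, and partners in the processing of antigen and receptors. No gene of these lists was called with treatment in *Tmem173*-/- BMDCs.

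**Figure D4:**
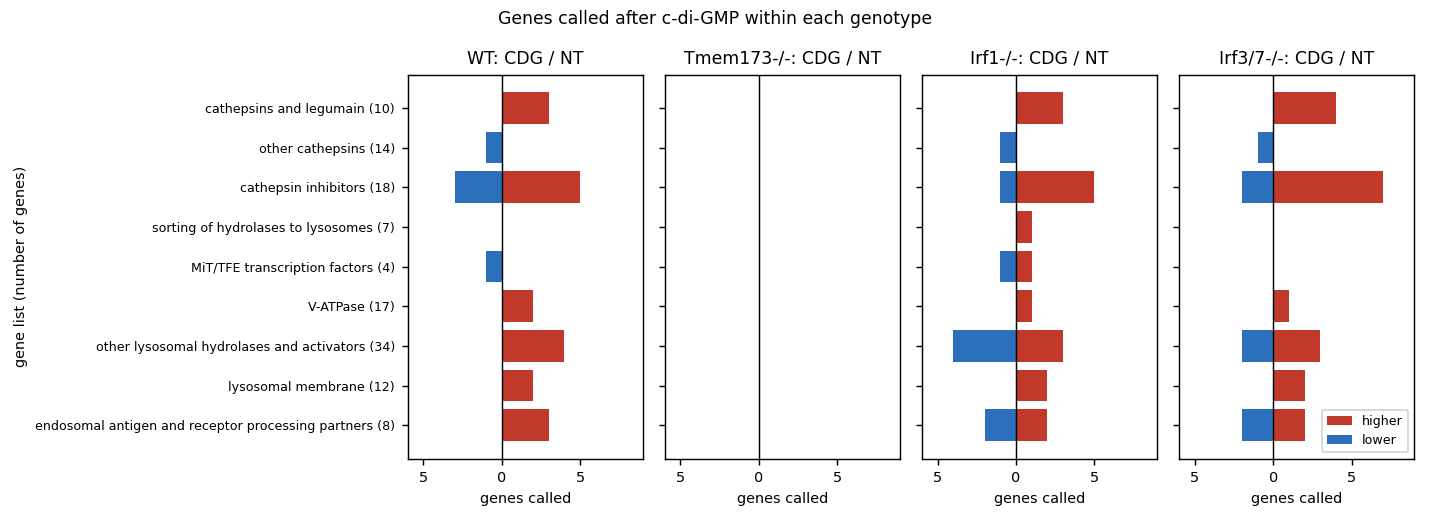
Number of genes of each list called higher (red, to the right of 0) or lower (blue, to the left of 0) with c-di-GMP (CDG) against untreated (NT) in each genotype. In wild-type BMDCs 5 inhibitors were called higher and 3 lower, and the *Tmem173*-/- panel holds no call.

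Among the 14 other cathepsin genes, 8 of which are placental cathepsins, at most 6 could be tested. *Napsa*, which encodes the aspartic protease napsin A, fell from 499 to 174 FPKM with treatment in wild-type BMDCs, the opposite direction to *Ctsb*, *Ctsk* and *Ctsz*. It also fell in *Irf1*-/- and *Irf3/7*-/- BMDCs, from 375 to 171 and from 288 to 104 FPKM. The level of *Ctsg*, the neutrophil cathepsin G, was 6.44 and 6.11 FPKM in wild-type BMDCs and 14.9 to 22.1 FPKM in the knockouts, called higher in each of the 6 comparisons with wild-type. *Ctsw*, the cathepsin W of cytotoxic lymphocytes, had 14.9 and 9.71 FPKM in wild-type, 0.03 and 0.0993 FPKM in *Tmem173*-/-, 1.09 and 1.19 FPKM in *Irf1*-/- and 25.7 and 40.4 FPKM in *Irf3/7*-/- BMDCs. The 5 T and NK cell markers had the same order of genotypes, with sums of 30.3 and 20.9, 0.288 and 0.182, 1.81 and 1.51, and 41.1 and 73.1 FPKM, and their part in the *Ctsw* levels was not tested. *Ctsa*, *Ctsf* and *Ctso* were not called with treatment in any genotype.

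Cystatin and serpin genes were among the listed inhibitors that rose. The list mixes families, and whether its serpins act on the 10 proteases was not examined. Of 16 inhibitors tested in wild-type BMDCs, 5 were called higher and 3 lower, with a median log2 difference of 0.08. Over all tested genes 10.5% were called higher and 9.96% lower. *Cst3*, the secreted inhibitor cystatin C, rose from 4409 to 9604 FPKM, above the sum of the 10 proteases in both conditions. *Cst7*, which encodes the lysosomal inhibitor cystatin F, rose from 44.5 to 222 FPKM, and the serpin gene *Serpinb9* from 109 to 365 FPKM. In treated *Tmem173*-/- BMDCs *Cst3* was at 2714 FPKM and *Cst7* at 13.6 FPKM, log2 differences of -1.82 and -4.02 from treated wild-type. *Cst7* was also called lower in treated *Irf1*-/- BMDCs, at 92.3 FPKM and a log2 difference of -1.26, whereas it was at 204 FPKM in treated *Irf3/7*-/- BMDCs. The cytosolic inhibitor stefin B, *Cstb*, was not called with treatment, at 469 FPKM untreated and 699 FPKM treated in wild-type BMDCs. The 3 called lower in wild-type BMDCs were *BC100530*, *Stfa2* and *Stfa2l1*, near-identical stefin A genes whose reads may be split between copies. Of 18 inhibitors, 5 stefin A genes had an FPKM outside their own interval in at least 1 condition, so that their calls are uncertain.

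The sorting, proton pump and hydrolase genes are read beside the 10.5% of all genes called higher and the 9.96% called lower in wild-type BMDCs. Of 7 sorting genes none was called with treatment in wild-type BMDCs, and *Scarb2*, the receptor of glucocerebrosidase, rose in *Irf1*-/- BMDCs from 28.3 to 61.4 FPKM. Among the 4 MiT/TFE genes, *Tfeb* fell from 14.2 to 5.93 FPKM in wild-type and from 13.0 to 6.08 FPKM in *Irf1*-/- BMDCs, and it was at 16.6 and 13.0 FPKM in *Tmem173*-/- BMDCs. *Mitf* rose in *Irf1*-/- BMDCs, from 12.0 to 24.6 FPKM, and was at 10.8 and 18.9 FPKM in wild-type BMDCs, not called. *Tfe3* was at 30.0 and 29.1 FPKM in wild-type BMDCs. Of 17 V-ATPase genes, *Atp6v0b* and *Atp6v1d* were called higher in wild-type BMDCs, at 2.08-fold and 2.01-fold, and the list's median was 0.38. Of 33 tested hydrolases and activators, 4 were called higher and none lower in wild-type BMDCs, among them the cholesterol carrier *Npc2*, from 179 to 787 FPKM, *Gla* (alpha-galactosidase A) and *Acp2* (acid phosphatase). In *Irf1*-/- BMDCs 3 of these 33 were called higher and 4 lower, where 9.67% of all tested genes were called higher and 7.81% lower. In *Irf3/7*-/- BMDCs 3 were called higher and 2 lower, where the shares over all genes were 10.2% and 7.68%. *Laptm4b*, a membrane protein, rose in all genotypes with STING, from 2.26 to 18.0 FPKM in wild-type BMDCs, from 1.77 to 12.4 FPKM in *Irf1*-/- and from 1.53 to 14.7 FPKM in *Irf3/7*-/- BMDCs.

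Partners and substrates of the endosomal proteases differed among themselves. The endosomal receptor genes *Tlr3*, *Tlr7* and *Tlr9* rose in wild-type BMDCs, at log2 differences of 3.28, 2.42 and 1.11, from levels of 0.606, 2.14 and 5.16 FPKM. They were 3 of the 8 partners tested, where 10.5% of all tested genes were called higher. *H2-DMa* and *H2-DMb1*, which encode the chaperone that removes the last invariant chain fragment from MHC class II, were at 170.2 and 108 FPKM untreated and 108 and 87.8 FPKM treated in wild-type BMDCs and were not called. Both fell with treatment in *Irf1*-/- BMDCs, to 36.5 and 39.9 FPKM, and in *Irf3/7*-/- BMDCs, to 74.8 and 56.4 FPKM. Over all tested genes 7.81% and 7.68% were called lower there. In treated *Irf1*-/- BMDCs *H2-DMa* and *H2-DMb1* were called lower than in treated wild-type BMDCs, at log2 differences of -1.57 and -1.14, as were *Ctsc* and *Ctsh*. *Tlr3*, at 2.75 against 6.77 FPKM, and *Tlr9*, at 4.84 against 11.2 FPKM, were called lower as well. That made 4 of the 8 partners, where 4.91% of all tested genes were called lower. The invariant chain gene *Cd74* was between 3336 and 4983 FPKM in the 8 conditions and was not called with treatment.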

How the data were processed

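Stranded mRNA libraries of 16 BMDC samples were sequenced, and the authors ran Cuffdiff (version 1.06 in the submitters' processing notes), which combined the samples of each condition, and deposited 1 FPKM per gene and condition with an interval and a status. The methods state opposing-strand libraries for an analysis in SeqMonk. Not given in the sources used here are the aligner and the strand setting of the Cuffdiff run. Build mm9 is named in the processing notes, but 21454 of 21681 loci overlapped the GRCm38 gene of the same name, so GRCm38 positions were used. A further set of 4 columns was not used.

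Values were compared as log2(FPKM + 0.1) across all 23356 genes in 10 comparisons, and only the rows of the listed genes are given. No test between conditions was made, since no replicate values were used, and the intervals cannot be checked against replicates. The members and lists were chosen with earlier results of these data known. Named were the 10 genes, those of the 8 lists, the targeted genes and, for each member, the 3 genes of highest r over the 8 conditions. As alternatives, 1 or 0.01 FPKM was added, the minimum was dropped or set to 5 FPKM, and the rule was changed to a fold of 1.5, median-centred values, fold alone, or a z from the interval widths with a Benjamini-Hochberg q under 0.05. Scripts ran in python 3.11.15 with matplotlib 3.10.9, scipy 1.17.1, pandas 2.3.3 and numpy 2.4.6. Not every gene of the lists is reported here.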

Additional observations from a re-analysis of the deposited data

How the results depend on the processing

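No call of a member was lost or reversed under the 8 alternatives. With a fold threshold of 1.5, the members called with treatment in wild-type BMDCs went from 3 to 6 (*Ctsd*, *Ctsh* and *Lgmn* were added, all higher). Those called in treated *Irf3/7*-/- against treated wild-type BMDCs went from 0 to 3 (*Ctsc* and *Ctsh* lower, *Ctsl* higher). Those called in untreated *Irf1*-/- against untreated wild-type BMDCs went from 1 to 2 (*Ctsc*, lower). Without a minimum FPKM, *Ctse* gave 1 call in treated *Irf3/7*-/- against treated wild-type BMDCs, where there was none. It was then also called lower with treatment in wild-type BMDCs (from 3 to 4 members). In treated *Tmem173*-/- against treated wild-type BMDCs it was called higher (from 4 to 5 members). The other counts of members stayed within 1.5 times. Among these, the members called with treatment in *Irf3/7*-/- BMDCs went from 4 to 6 at a fold of 1.5. *Ctsd* was added as higher and *Ctsc* as lower, at a log2 difference of -0.75. Median centring shifted the conditions by -0.04 to 0.02 on the log2 scale. No paired analysis was possible because the samples of each condition were combined before deposition, and for the same reason no sample could be left out. With the fold alone, *Ctsz* was also called with treatment in *Irf1*-/- BMDCs, whereas *Ctss* stayed uncalled, since it did not reach 2-fold in any comparison. *Ctse* was kept out by the minimum of 1 FPKM. Depth cannot be read from FPKM.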
